A study of Mus musculus with 2 samples.

Results

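Integrins are the receptors through which leukocytes hold on to vessel walls, tissue matrix and each other. This account covers 10 integrin subunit genes, Itga1, Itga2, Itga4, Itga6, Itgae, Itgal, Itgam, Itgax, Itgb1 and Itgb7, in leukocytes of the mouse adrenal gland. They were chosen by name, as the subunits by which leukocytes are usually told apart, and were followed across cell classes parted by other genes. Earlier results of these data were known when the 10 genes were chosen. The count tables listed 32285 genes, of which 20206 had at least 1 unique molecular identifier (UMI, a tag that marks 1 captured transcript) in the cells kept, and 27 of the listed genes encode integrin subunits. All 10 members had UMIs in both libraries.

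The cells were live CD45+ cells (CD45 is the surface protein of leukocytes) sorted from adrenal glands of wild-type C57BL/6 mice aged 7 weeks, after digestion of the tissue with Liberase and DNAse I. The study profiled them with droplet 3′ single-cell RNA sequencing to describe immune cells of the gland in females and males, with 1 female and 1 male library. How many animals were pooled in a library was not stated. After filtering, 3694 female and 2449 male cells remained. They held 15045146 and 9035910 UMIs, or 3489.5 and 3008 in the median cell, and 2 cell barcodes occurred in both libraries. With 1 library per sex and cells that are not replicates, no test across animals was possible and no p-value is given. Levels are UMIs of a gene summed over the cells of a class scaled to 1000000 UMIs of that class (CPM). In parentheses after a level or ratio stands its 95% interval (exact Poisson for levels, exact conditional for ratios), which covers counting error only and not the spread between animals. Pairs of values give the female library first and the male library second. Levels are compared between classes and libraries for 1 gene at a time.

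Clustering without the 10 genes and Itgb2 gave 22 clusters. Those whose leading genes matched marker lists formed 15 classes with at least 35 cells in each library. Each class name stands for cells like that type, rebuilt here from markers, so that differences from the study's own clusters may come from the naming. Macrophages fell into a Lyve1-high class (94 and 163 cells, led by Folr2, Fcna and Lyve1), an Aldh1a2-high class (87 and 103 cells, led by Lyz1, Retnla and Fn1) and other macrophages (639 and 529 cells). Monocytes were classical (192 and 111 cells, led by Chil3 and Plac8) or nonclassical (103 and 70 cells, led by Ace and Nr4a1), and dendritic cells were type 1 (42 and 37 cells) or type 2 (142 and 91 cells). Conventional natural killer (NK) cells (344 and 161 cells) were led by Prf1, Klra4, Klra8 and Gzma, and type 1 innate lymphoid cells (ILC1, 518 and 210 cells) by Cd7, Xcl1, Klrb1b and Cd160. Lymphocytes also comprised CD8 T cells (259 and 128 cells, led by Dapl1, Cd8b1 and Lef1), other T cells (456 and 260 cells, led by Trac, Cd3e and Tcrg-C2), B cells (515 and 267 cells) and type 2 innate lymphoid cells (ILC2, 76 and 55 cells, with Il1rl1 among the leading genes). Neutrophils (47 and 50 cells) and endothelial cells (45 and 50 cells) were also small classes, and the latter do not carry CD45 although the sort was for CD45+ cells. A cluster of 67 and 140 cells with a median of only 788 and 675 UMIs, led by Adap2os, and a cycling cluster of 26 and 10 cells stayed unnamed. Mast cells or basophils (23 and 6 cells) and plasmacytoid dendritic cells (19 and 8 cells) were named but too few. They are not among the 15 classes, and rankings leave them out.

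An integrin is a pair of an α and a β chain, and the partner decides what the pair binds. The β1 chain (Itgb1) joins α1 (Itga1, CD49a) and α2 (Itga2, CD49b), which bind collagens and laminins, α4 (Itga4), which binds VCAM-1 and fibronectin, and α6 (Itga6), a laminin receptor. The β7 chain (Itgb7) joins α4, for the gut vessel addressin MAdCAM-1, and αE (Itgae, CD103), which binds E-cadherin on epithelia. The β2 chain (Itgb2, not one of the 10 genes) joins αL (Itgal, CD11a) into LFA-1, the receptor of ICAM proteins, αM (Itgam, CD11b) into Mac-1, the receptor of complement fragment iC3b and fibrinogen, and αX (Itgax, CD11c). Antibodies to several of these chains are the usual means of sorting leukocytes into types, which is why the classes here were parted by other genes.

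Positions are given on GRCm38 (mm10), the build named in the submitters' processing notes. Itga1 (ENSMUSG00000042284, chr13:114953096-115101964, minus strand) and Itga2 (ENSMUSG00000015533, chr13:114833081-114932100, minus strand) lie 20.995 kb apart with 0 coding genes between them. Itgam (ENSMUSG00000030786, chr7:128062640-128118491, plus strand) and Itgax (ENSMUSG00000030789, chr7:128129547-128150657, plus strand) lie 11.055 kb apart, also with 0 coding genes between, and Itgal (ENSMUSG00000030830, chr7:127296260-127335138, plus strand) lies 727.501 kb before Itgam, with 38 coding genes between. Itga4 (ENSMUSG00000027009, chr2:79255426-79333123) and Itga6 (ENSMUSG00000027111, chr2:71745616-71858416) are both on the plus strand of chromosome 2. Itgae (ENSMUSG00000005947, chr11:73090583-73147446, plus strand), Itgb1 (ENSMUSG00000025809, chr8:128685654-128733200, plus strand) and Itgb7 (ENSMUSG00000001281, chr15:102215995-102231944, minus strand) stand apart. Itga1 overlaps Pelo and Itga6 overlaps Gm13663 and Gm13662 on the same strand, so their counts are uncertain to the extent that reads in the overlaps were split or dropped.

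The 4 promoters below are those of the adjacent pairs, shown because the genes of each pair lie side by side. Each line is the 250 bases before the RefSeq start of transcription on GRCm38.p6, read 5′ to 3′ on the gene's strand (minus for Itga1 and Itga2, plus for Itgam and Itgax). Capitals mark the letters GAGGAA of a PU.1-type ETS site or their reverse complement TTCCTC, the only searched letters with a match in these windows.

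Itga1, chr13:115101965-115102214: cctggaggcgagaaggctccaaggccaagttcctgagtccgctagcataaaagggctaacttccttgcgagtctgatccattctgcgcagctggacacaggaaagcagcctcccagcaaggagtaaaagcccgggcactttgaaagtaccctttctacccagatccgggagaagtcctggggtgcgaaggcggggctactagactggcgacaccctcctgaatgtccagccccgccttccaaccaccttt

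Itga2, chr13:114932101-114932350: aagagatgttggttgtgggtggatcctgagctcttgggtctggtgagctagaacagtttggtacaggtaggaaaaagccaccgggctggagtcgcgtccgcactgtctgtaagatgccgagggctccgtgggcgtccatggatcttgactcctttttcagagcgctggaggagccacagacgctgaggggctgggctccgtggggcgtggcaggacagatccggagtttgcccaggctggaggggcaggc

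Itgam, chr7:128062390-128062639: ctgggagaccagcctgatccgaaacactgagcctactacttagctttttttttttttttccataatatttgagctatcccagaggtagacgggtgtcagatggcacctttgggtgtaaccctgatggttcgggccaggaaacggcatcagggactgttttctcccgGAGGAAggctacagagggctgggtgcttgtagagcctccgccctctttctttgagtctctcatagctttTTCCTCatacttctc

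Itgax, chr7:128129300-128129549: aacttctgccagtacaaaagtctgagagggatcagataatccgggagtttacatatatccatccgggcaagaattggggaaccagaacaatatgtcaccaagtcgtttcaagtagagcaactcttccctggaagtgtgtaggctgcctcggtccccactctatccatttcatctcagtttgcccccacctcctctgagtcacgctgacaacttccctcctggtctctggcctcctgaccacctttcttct

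RefSeq promoter windows were at hand for 7 of the 10 members. The searched letters, on both strands, were GAGGAA, which 23.3% of 32851 RefSeq windows of 250 bases hold, AGGTGT of a T-box half-site (11.8% of windows), TGTGGT of a RUNX site (14.0%) and TATAAA of a TATA box (12.4%). The Itgam window held GAGGAA 84 bases before the start on its own strand and, on the other strand, 15 bases before the start. The other 3 windows held none of the searched letters, which says only that these letters are not in these windows.

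**Figure D1:**
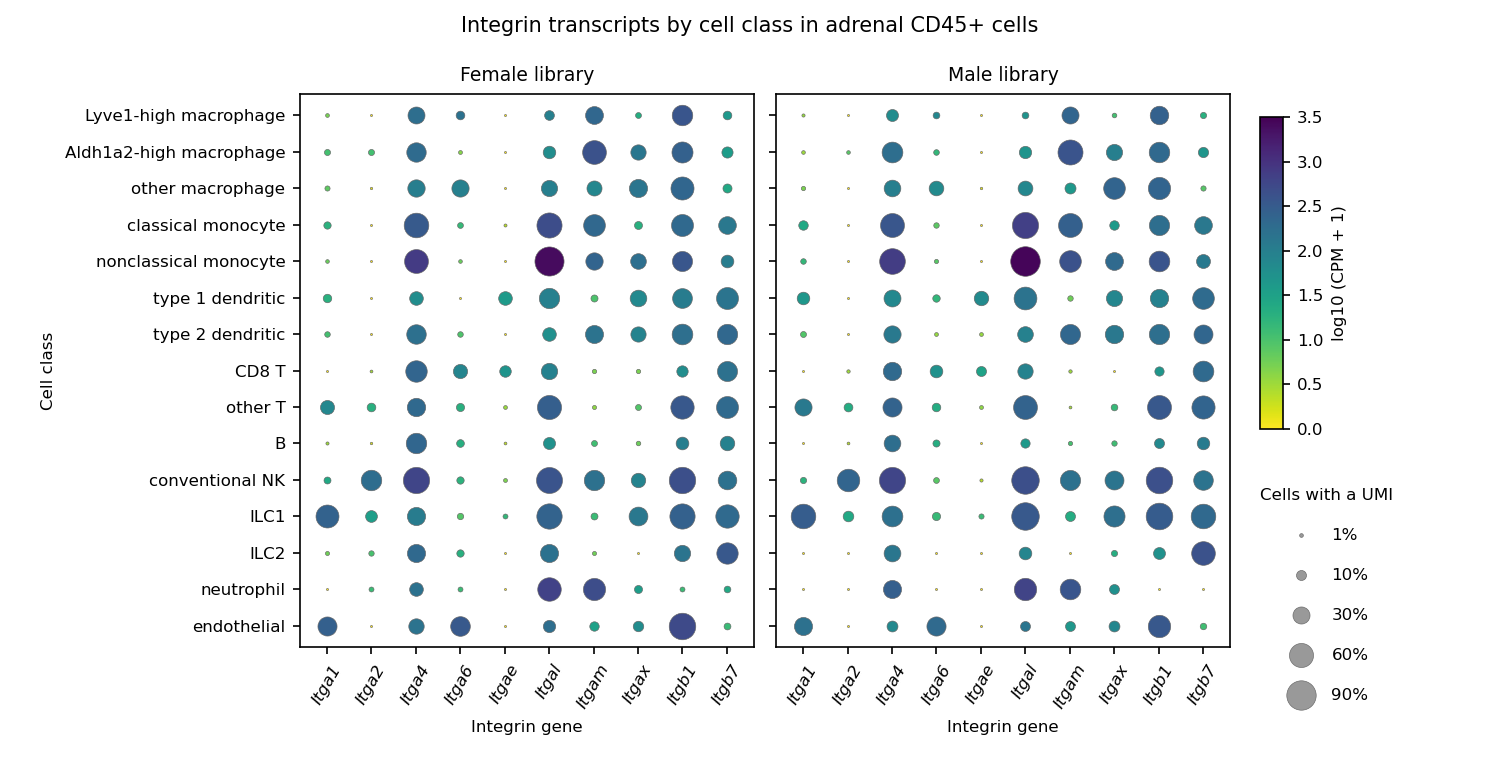
Dot plot of the 10 integrin genes (x axis) in 15 cell classes (y axis), 1 panel per library. Colour gives log10(CPM + 1) and dot area the percentage of cells of the class with at least 1 UMI. Itgal in nonclassical monocytes (2522 and 2870.2 CPM) is darker than in any other class in both panels. Itga1 is high in ILC1 and in endothelial cells, which lie above ILC1 in the female panel. Itga2 is highest in conventional NK cells.

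The collagen receptor chains Itga1 and Itga2 parted the NK-type lymphocytes, which are conventional NK cells, circulating killer cells, and ILC1, their relatives that stay in tissue. ILC1 held Itga1 at 257 CPM (238 to 276) and 297 CPM (268 to 329), against 24.5 CPM (16.8 to 34.6) and 16.8 CPM (8.67 to 29.3) for conventional NK cells. ILC1 were thus 10.5-fold (7.35 to 15.4) and 17.7-fold (10.0 to 34.6) higher. Itga2 ran the other way, with 185 CPM (162 to 209.6) and 232 CPM (198 to 270.4) for conventional NK cells and 34.4 CPM (27.8 to 42.0) and 24.2 CPM (16.3 to 34.5) for ILC1. Conventional NK cells were 5.38-fold (4.22 to 6.89) and 9.60-fold (6.48 to 14.7) higher. In antibody sorts, CD49a marks ILC1 and CD49b conventional NK cells, and the transcripts were split in the same sense although neither gene entered the clustering.

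Shares of cells with a UMI showed the same split. At least 1 Itga1 UMI was seen in 54.8% and 62.9% of ILC1 (median 4723 and 5478 UMIs per cell) and in 4.65% and 3.73% of conventional NK cells (median 3479.5 and 4112). In B cells, which should lack the gene, the shares were 0.583% and 0% at a median of 2208 and 1744 UMIs. When every cell was thinned to 1000 UMIs, the shares for Itga1 were 22.9% and 25.4% in ILC1, 1.47% and 1.26% in conventional NK cells and 0.201% and 0% in B cells. The few Itga1 UMIs of conventional NK cells came from few cells, since the 5 highest cells held 62.5% and 91.7% of them. Itga2 was seen in 43.6% and 52.8% of conventional NK cells, 14.1% and 11.4% of ILC1 and 0.194% and 0.375% of B cells. After thinning, these shares were 18.0% and 21.4%, 3.29% and 1.44% and 0.201% and 0%.

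Some ILC1 held both transcripts. Of the 518 female ILC1, 37 had UMIs of both genes, 247 of Itga1 alone, 36 of Itga2 alone and 198 of neither. The 210 male ILC1 divided into 13, 119, 11 and 67 cells. Conventional NK cells with both numbered 8 of 344 and 5 of 161, and those with Itga2 alone 142 and 80. A cell without a UMI may still have held the transcript, and a UMI may come from free RNA, for which the shares of B cells give the scale.

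The size of the split depended on how the cells were parted. When each cell was gated by its own UMIs of 10 conventional NK and 10 ILC1 marker genes, 243 of the 728 cells of the ILC1 cluster (33.4%) were gated as conventional NK cells. Itga1 was then 1.35-fold and 1.91-fold higher in ILC1, under the 2-fold used here. Gzma, a granzyme gene, was one of the conventional NK markers, at 4313 and 2424 CPM in ILC1 and 12447 and 9233 CPM in conventional NK cells. With gates without Gzma, an alternative added after seeing the data, 63 of the 728 cells of the ILC1 cluster (8.65%) were gated as conventional NK cells and 81 as neither. Of the 505 cells of the conventional NK cluster, 51 were then gated as ILC1 and 26 as neither, against 14 and 8 with Gzma. With these gates Itga1 was 2.73-fold and 3.99-fold higher in ILC1. Itga2 stayed 3.15-fold and 4.92-fold higher in conventional NK cells with the first gates. Each of the 20 marker genes was higher in its own cluster class in both libraries. The same lists had named these classes, so that this adds nothing to the split.

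The VCAM-1 receptor chain Itga4 and the complement receptor chain Itgam also differed between these classes. Conventional NK cells held Itga4 at 599 CPM (558 to 643) and 606 CPM (550.0 to 666), and ILC1 at 111 CPM (99.0 to 124) and 168 CPM (146 to 192). The ratio was 5.40-fold (4.72 to 6.18) and 3.61-fold (3.06 to 4.28), with per-cell gates 2.56-fold and 2.79-fold, and with a mitochondrial ceiling of 1.2% it was 7.06-fold and 1.13-fold. They held Itgam at 161 CPM (139.9 to 184) and 161 CPM (133 to 193), and ILC1 at 11.9 CPM (8.22 to 16.8) and 21 CPM (13.7 to 30.7), a difference of 13.5-fold (9.31 to 20.1) and 7.68-fold (4.98 to 12.2). Across the pair of classes, a gene was counted as different when it differed 2-fold or more in the same direction in both libraries, among genes with 50 or more UMIs over both classes in each library. By this count 4 of 8 integrin genes differed (Itga1, Itga2, Itga4 and Itgam), against 3.52% of the 5177 genes that could be counted.

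The other chains were closer in the NK-type classes. Itgal, of LFA-1, was 1.55-fold and 1.33-fold higher in conventional NK cells, and Itgb1 1.70-fold and 1.43-fold higher. Itgax was 1.45-fold and 1.23-fold higher and Itgb7 1.24-fold and 1.44-fold higher in ILC1. Itgb2, the partner of αL, αM and αX, was 1.84-fold and 1.61-fold higher in conventional NK cells. None of these passed 2-fold in both libraries. Of 16 integrin activation and linkage genes that could be counted, only Rasgrp2, an exchange factor for the switch protein Rap1, passed, and it was lower in ILC1.

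**Figure D2:**
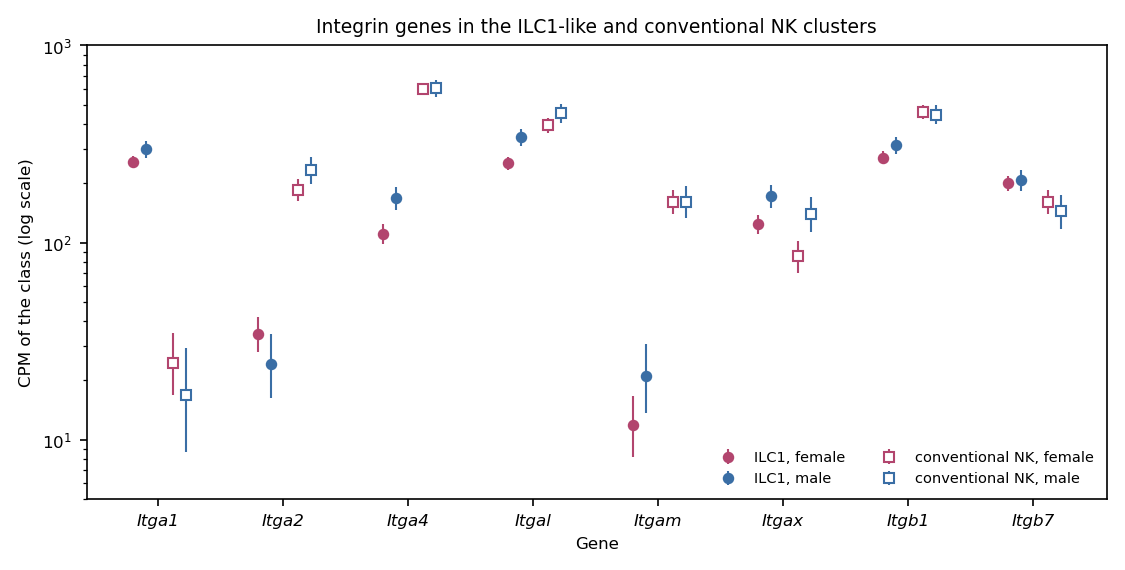
Level in CPM (log scale, y axis) of the integrin genes with enough UMIs (x axis) in ILC1 and conventional NK cells, female and male libraries, with exact Poisson 95% intervals. Itga1 lies higher in ILC1 and Itga2, Itga4 and Itgam higher in conventional NK cells in both libraries, with intervals that do not overlap.

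Outside the NK-type cells, Itga1 was high in endothelial cells and T cells. Endothelial cells had 277 CPM (201 to 372) and 163 CPM (110.0 to 233), which overlapped ILC1 in the female library and lay below it in the male. Next came other T cells, at 75.5 CPM (64.0 to 88.5) and 122 CPM (101 to 145), with a UMI in 20.4% and 30.4% of cells, and stood apart from the next class in both libraries. CD8 T cells had 0 Itga1 UMIs among 999256 and 441396, which allows a level of up to 3.00 and 6.80 CPM and a UMI in up to 1.16% and 2.34% of cells (3 counts per library, a limit on cells with a UMI and not on cells that express the gene). Other T cells were at least 25.1-fold and 17.9-fold higher than CD8 T cells. The CD8 T cells were led by Lef1 and Ccr7, genes of naive and recirculating T cells. Type 1 dendritic cells (17.7 and 44.1 CPM), classical monocytes (17.3 and 24.4) and the remaining classes did not form a stable order. ILC1 markers were not confined to ILC1. The 10 marker genes summed to 4236 and 5003 CPM in ILC1 and 3721 and 3910 CPM in ILC2, which had 1 and 0 Itga1 UMIs. They summed to 2491 and 2792 CPM in other T cells and 1693 and 1570 CPM in Lyve1-high macrophages. In CD8 T cells the sums were 1685 and 1341 CPM, and in conventional NK cells 1323 and 1737 CPM. The part of these markers in the Itga1 level of T cells was not tested.

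Itga2 was rare outside lymphocytes in these libraries. After conventional NK cells and ILC1, other T cells had 18.9 CPM (13.4 to 25.9) and 21.2 CPM (13.3 to 32.2), below ILC1 in the female library and overlapping it in the male, with UMIs in 7.46% and 7.69% of cells. Lyve1-high macrophages, both monocyte classes, both dendritic classes and endothelial cells had 0 Itga2 UMIs in both libraries. Aldh1a2-high macrophages had 3 and 3 UMIs, other macrophages 1 and 0, and B cells 1 and 1. Of the other T cells, 9 and 9 had UMIs of both Itga1 and Itga2, 84 and 70 of Itga1 alone, and 25 and 11 of Itga2 alone.

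Itga4 was highest in nonclassical monocytes and conventional NK cells, whose intervals overlapped in the male library only. Nonclassical monocytes, which patrol the vessel wall, had 782 CPM (661 to 919) and 744 CPM (608 to 902). Classical monocytes followed at 332 CPM (292 to 375) and 362 CPM (308 to 421) and stood apart from the classes below them in both libraries, except from neutrophils, whose interval in the male library reached 415 CPM. Then came other T cells (209.5 and 253 CPM), neutrophils (157 and 281), CD8 T cells (235 and 202), B cells (228 and 174), Aldh1a2-high macrophages (196 and 176) and ILC2 (205 and 134), each overlapping the next in at least 1 library. Other macrophages (101 and 101 CPM) and type 1 dendritic cells (61.9 and 73.5) were at the low end, and every class had UMIs of the gene.

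Of the 15 classes, Itgb7, which can pair with α4, was highest in ILC2, at 350.1 CPM (275 to 439) and 416 CPM (319 to 533). ILC2 stood apart from the other classes in both libraries. Mast cells or basophils, too few to form a class, overlapped ILC2 at 310 CPM (189 to 479) and 377 CPM (138 to 820). A UMI was seen in 47.4% and 58.2% of ILC2. ILC2 are tissue lymphocytes that make type 2 cytokines. Of the 9 ILC2 markers, 4 counted as raised when this cluster was named. The 8 T cell markers summed to 1461 and 1160 CPM in it, against 5989 and 6210 CPM in other T cells. With integrin genes not held out, the class had 107 and 79 cells. The part of T cell markers in its Itgb7 level was not tested. Type 2 dendritic cells (216 and 229 CPM), other T cells (199.6 and 245), ILC1 (199.7 and 207), CD8 T cells (161 and 202) and type 1 dendritic cells (142 and 191) followed, each overlapping the next in at least 1 library. Macrophages were low, with 41.4 and 18.0 CPM in the Lyve1-high, 37.2 and 45.8 in the Aldh1a2-high and 24.5 and 7.26 in the other class. Neutrophils had 2 and 0 UMIs.

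Itgae, the αE chain of cells that lodge in epithelia, was sparse, with 114 and 51 UMIs in all. Type 1 dendritic cells, for which CD103 is a usual surface marker in tissues, had 39.8 CPM (18.2 to 75.6) and 68.6 CPM (37.5 to 115), from 9 and 14 UMIs. CD8 T cells had 48.0 CPM (35.4 to 63.7) and 29.5 CPM (15.7 to 50.4). The intervals of these classes overlapped, and UMIs were seen in 19.0% and 21.6% of type 1 dendritic and 13.5% and 10.2% of CD8 T cells, against 0.388% and 0% of B cells. ILC1 had 14.1 and 12.1 CPM, of which the 5 highest cells held 82.1% and 100%. Type 2 dendritic cells had 0 and 1 UMIs, and 6 classes had none in either library: Lyve1-high and Aldh1a2-high macrophages, nonclassical monocytes, ILC2, neutrophils and endothelial cells. Of the 35 and 13 CD8 T cells with an Itgae UMI, 14 and 6 also had one of its partner Itgb7.

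Itgb1, the shared partner of α1, α2, α4 and α6, was present in nearly every class. The highest mean levels of the libraries were in conventional NK cells (459.9 and 446 CPM) and endothelial cells (516 and 359), followed by nonclassical monocytes (367 and 387), other T cells (358 and 349) and Lyve1-high macrophages (381 and 267). Neighbours in this order overlapped in at least 1 library. ILC1 came next, at 270.2 CPM (251 to 290.3) and 311 CPM (281 to 344). B cells (102 and 71.2 CPM) and CD8 T cells (62.0 and 45.3) were low. Neutrophils had 1 and 0 UMIs among 82850 and 88971 in the class.

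CD8 T cells and other T cells differed in 3 of 5 members that could be counted, against 9.11% of 3679 genes. Itga1 was 1 of them, as given above. Itgb1 was 5.76-fold (4.44 to 7.59) and 7.69-fold (4.91 to 12.7) higher in other T cells, and Itgal 3.07-fold (2.46 to 3.87) and 2.80-fold (1.99 to 4.03) higher. With per-cell gates the ratio of Itgb1 was 3.09-fold and 2.56-fold, and that of Itgal fell to 1.26-fold and 1.44-fold, under the 2-fold rule. Itga6 and Itgae had fewer than 50 UMIs in the male library and were not counted. Itga6 was 4.19-fold and 2.56-fold higher in CD8 T cells, and Itgae 19.3-fold and 10.2-fold higher. The median gene was itself lower in CD8 T cells by 0.34 and 0.40 on the log2 scale. Itgb2 was 2.92-fold and 3.69-fold higher in other T cells. The 8 markers shared by NK cells and ILC1 summed to 3288 and 3166 CPM in other T cells. In CD8 T cells they summed to 1059 and 813 CPM, and their part in these differences was not tested.

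B cells fell into a cluster led by Igkc, Ighm and Mzb1 and a cluster led by Ighd, Ebf1 and Vpreb3. Itgb1 was 5.50-fold (3.62 to 8.69) and 4.82-fold (2.43 to 10.4) higher in the Mzb1 cluster, the only 1 of 3 members counted to pass 2-fold, against 8.03% of 1656 genes. Itgb7 was 1.67-fold and 2.10-fold higher there. Itgam was at 19.6 and 19.5 CPM in the Mzb1 cluster and 1.18 and 2.45 CPM in the Ighd cluster, from too few UMIs for the count. CD11b is known as a surface protein of B-1 cells, a type for which no list was used here.

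The laminin receptor chain Itga6 was highest in endothelial cells, at 346 CPM (261 to 451) and 201 CPM (142 to 277), apart from every other class in both libraries. The endothelial class carried endothelial markers (8 genes summing to 9071 and 8611 CPM) together with macrophage markers (10 genes, 9291 and 9926 CPM), and the part of the latter in its integrin levels was not tested. Other macrophages had 97.9 CPM (86.7 to 110.0) and 68.0 CPM (57.6 to 79.9) and a UMI in 30.7% and 22.1% of cells. Lyve1-high macrophages had 157 and 74.5 CPM, but 94.7% and 93.1% of those UMIs sat in 5 cells and only 7.45% and 4.29% of cells had one. The summed level of that class therefore rested on a few cells. CD8 T cells came next, at 79.1 CPM (62.6 to 98.5) and 54.4 CPM (34.8 to 80.9), apart from other T cells (18.9 and 21.2 CPM) in both libraries. Of the 11 classes below them, 8 were separate in both libraries, and neutrophils, nonclassical monocytes and type 1 dendritic cells, with 0 to 3 UMIs in a library, were not.

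Itga6 was 28.9-fold (5.14 to 1145) and 4.71-fold (2.11 to 13.0) higher in other macrophages than in Aldh1a2-high macrophages, which had only 1 and 6 UMIs. With per-cell gates the ratio was 1.09-fold and 1.12-fold, so that this difference did not hold when cells were parted by their own marker UMIs. Against classical monocytes, with 10 and 3 UMIs, other macrophages were 7.35-fold (3.94 to 15.5) and 10.2-fold (3.43 to 50.2) higher.

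Among the β2 partners, Itgal marked nonclassical monocytes. They had 2522 CPM (2300.1 to 2759.7) and 2870.2 CPM (2596 to 3165), apart from every other class in both libraries, with a UMI in 88.3% and 91.4% of cells. After thinning to 1000 UMIs the share was 91.5% and 91.5%, against 5.42% and 4.37% in B cells. LFA-1 is the integrin with which patrolling monocytes crawl along vessel walls. Neutrophils (652 and 629 CPM) and classical monocytes (478 and 683) followed without separating, and classical monocytes stood apart from conventional NK cells (393 and 455). Other T cells (286 and 247 CPM) and ILC1 (253 and 343) came next, and macrophages, dendritic cells, CD8 T cells and B cells had between 40.5 and 147 CPM. The endothelial level of 176 and 136 CPM came almost wholly from 5 cells, which held 92.9% and 100% of the UMIs. Itgb2 had its highest level in the same class, at 612 and 637 CPM, and its lowest in B cells, at 30.0 and 34.9 CPM.

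Nonclassical and classical monocytes differed in 2 of 5 members that could be counted, against 9.45% of 1820 genes. Itgal was 5.28-fold (4.59 to 6.07) and 4.20-fold (3.61 to 4.89) higher in nonclassical monocytes. Itga4 was 2.36-fold (1.91 to 2.90) and 2.06-fold (1.59 to 2.65) higher, a difference that was 1.33-fold in the male library with per-cell gates. Itgb1 was 1.79-fold and 2.21-fold higher and did not pass in both libraries. Itgax was 9.13-fold and 5.02-fold higher on fewer than 50 UMIs per library and was not counted. Among the 10 activation and linkage genes that could be counted, Rasgrp2 and Ptk2b, a kinase downstream of integrins, passed and were higher in nonclassical monocytes, and the median of these 10 genes was 0.67 and 0.74 on the log2 scale, against 0.07 and 0.10 over all genes counted.

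Itgam, the α chain of Mac-1, was spread over neutrophils, macrophages and monocytes. Neutrophils had 483 CPM (345 to 657) and 371 CPM (255 to 521) and Aldh1a2-high macrophages 419.9 CPM (349 to 501) and 393 CPM (335 to 458). Nonclassical monocytes (239 and 415 CPM), classical monocytes (216 and 271), Lyve1-high macrophages (224 and 236), type 2 dendritic cells (144 and 218) and conventional NK cells (161 and 161) formed a middle group in which neighbours overlapped in at least 1 library. Other macrophages, the most numerous macrophage class, had 75.5 CPM (65.8 to 86.3) and 42.6 CPM (34.5 to 52.2) and lay below each class of the middle group by intervals that did not overlap in either library. T cells had at most 4.00 CPM, and CD8 T cells, which should lack the gene, had a UMI in 1.54% and 0.781% of cells (median 3658 and 3122 UMIs) against 23.3% and 12.3% of other macrophages (median 3973 and 3522).

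The macrophage classes differed in Itgam and Itgax in opposite ways. Lyve1-high macrophages are known from other tissues as cells that lie along vessels. Itgam was 2.96-fold (2.16 to 4.01) and 5.55-fold (4.11 to 7.47) higher in Lyve1-high than in other macrophages. Itgax was 6.53-fold (2.78 to 20.2) and 23.5-fold (9.13 to 86.6) higher in other macrophages, against 5 and 4 UMIs in the Lyve1-high class. With the mitochondrial ceiling at 1.2%, which left few cells, both directions turned in the female library, on 0 against 16 UMIs of Itgam and 2 against 10 UMIs of Itgax in Lyve1-high and other macrophages. By the 2-fold rule these were 2 of 6 members counted, against 11.6% of 5711 genes. Itga4 did not go the same way in both libraries, being 1.72-fold higher in the Lyve1-high class of the female library and 1.57-fold higher in other macrophages of the male library. Itgb1 was 1.66-fold and 1.12-fold higher in the Lyve1-high class, under 2-fold.

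Aldh1a2-high macrophages had the most Itgam of the macrophage classes, 5.56-fold (4.42 to 6.97) and 9.21-fold (7.10 to 12.0) above other macrophages, and a UMI in 58.6% and 65.0% of cells. The female ratio was 2.29-fold with the ceiling at 1.2%. With Itga6 (above), 2 of 6 members passed in this pair, against 17.7% of 5738 genes. Itga4 was 1.94-fold and 1.75-fold higher in the Aldh1a2-high class. Itgax was at 132 CPM (93.9 to 181) and 98.8 CPM (70.9 to 134) there, so that its ratio to other macrophages was 0.976-fold and 0.409-fold. Fn1, which encodes the integrin ligand fibronectin, was higher and Vcam1, which encodes the ligand of α4β1, lower in both the Lyve1-high and the Aldh1a2-high class than in other macrophages. Itga9 and Itgb5, of the other integrin genes, were lower in both.

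Itgax, used on the cell surface as a marker of dendritic cells, was not highest in the dendritic classes rebuilt by clustering. With per-cell gates, the highest class of the male library was type 2 dendritic cells, of which the gates kept 4. Other macrophages had 135 CPM (122 to 149) and 242 CPM (222 to 263) and nonclassical monocytes 170.3 CPM (116 to 240.4) and 200.4 CPM (133 to 289.7). ILC1 (124 and 172 CPM), Aldh1a2-high macrophages (132 and 98.8), conventional NK cells (85.1 and 139.9), type 2 dendritic cells (83.7 and 126) and type 1 dendritic cells (70.8 and 78.4) followed. Other macrophages lay above both dendritic classes by intervals that did not overlap in either library, while nonclassical monocytes lay above type 1 dendritic cells in both libraries and overlapped type 2 dendritic cells in the male library. A UMI was seen in 34.3% and 48.6% of other macrophages (11.1% and 19.8% after thinning), 28.6% and 27.0% of type 1 and 23.9% and 35.2% of type 2 dendritic cells, and 1.75% and 2.62% of B cells (1.0% and 0.397% after thinning). The unnamed cluster led by Adap2os, of very shallow cells, had 322 and 470 CPM.

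Some macrophages had UMIs of both Itgam and Itgax. Of the 639 female other macrophages, 51 had UMIs of both, 98 of Itgam alone and 168 of Itgax alone. Of the 529 male cells, 29 had both, 36 Itgam alone and 228 Itgax alone. After thinning to 1000 UMIs, 4 of 630 and 1 of 525 cells had both. In the Aldh1a2-high class, 13 and 22 cells had both, 38 and 45 Itgam alone and 8 and 6 Itgax alone. In the Lyve1-high class, 1 and 2 cells had both and 30 and 47 Itgam alone.

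Other macrophages and classical monocytes, from which tissue macrophages can arise, differed in 6 of 7 members, against 14.5% of 5797 genes. Itga6, given above, and Itgax were higher in macrophages, Itgax by 7.26-fold (4.27 to 13.4) and 6.06-fold (3.8 to 10.3). Classical monocytes were higher in Itga4 by 3.27-fold (2.75 to 3.89) and 3.59-fold (2.91 to 4.41) and in Itgam by 2.86-fold (2.32 to 3.52) and 6.34-fold (4.81 to 8.39). They were also higher in Itgal by 4.87-fold (4.15 to 5.71) and 9.02-fold (7.44 to 11) and in Itgb7 by 5.17-fold (3.76 to 7.14) and 17.1-fold (9.68 to 32.0). The β1 chain differed little, with Itgb1 1.12-fold and 1.36-fold higher in macrophages. Of the other integrin, linkage and ligand genes, Itgb5, Itga9, Parvg and Vcam1 were higher in macrophages, and Rasgrp2, Lims1 and Fn1 lower. Fn1 was at 7.69 and 16.8 CPM in macrophages and 1311 and 1515 CPM in classical monocytes.

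The dendritic cell types differed in 1 of 6 members, against 10.6% of 1364 genes. Itgam, the usual surface marker of type 2 cells, was 16.3-fold (4.37 to 137) and 44.6-fold (7.79 to 1783) higher in type 2 dendritic cells, with 86 and 83 UMIs against 2 and 1 in type 1. Itgae was at 9 and 14 UMIs in type 1 against 0 and 1 in type 2 cells, too few to be counted by the rule.

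**Figure D3:**
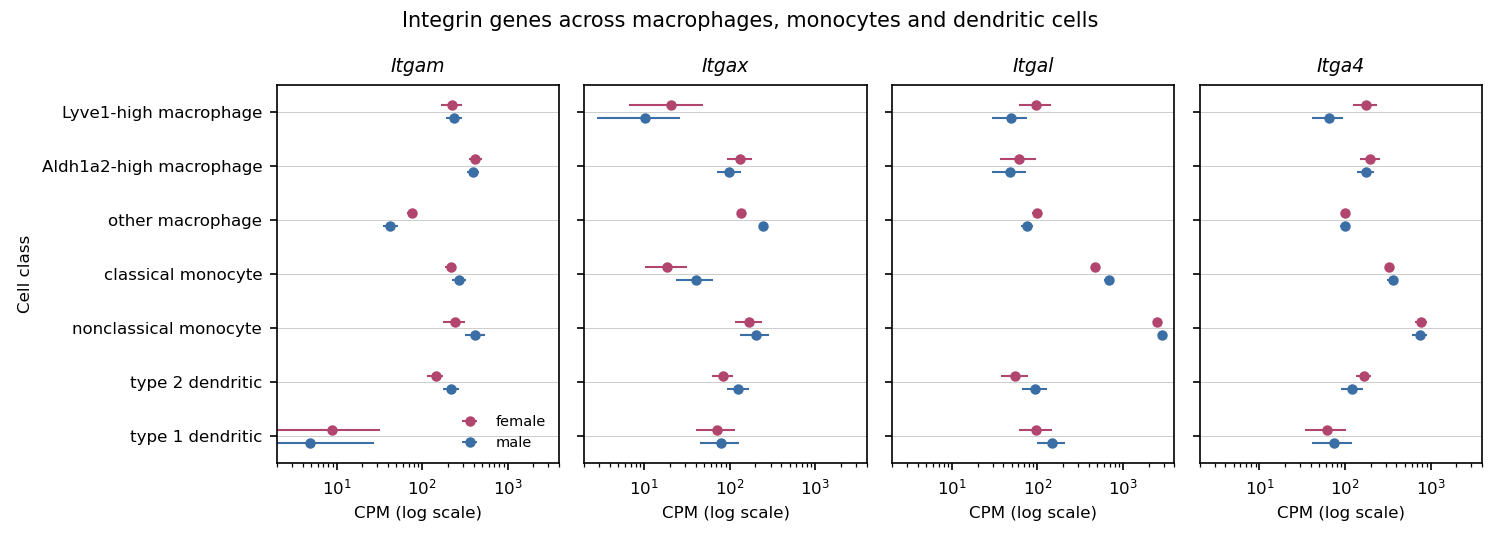
Level in CPM (log scale, x axis) of Itgam, Itgax, Itgal and Itga4 in the 7 macrophage, monocyte and dendritic classes (y axis), with exact Poisson 95% intervals, female in red and male in blue. Itgam is low and Itgax high in other macrophages, and Itgal peaks in nonclassical monocytes, in both libraries.

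The study parted adrenal macrophages by their MHC class II level, the molecules that present antigen, and set CD11c beside it, so Itgax was followed along that level. By antibody staining of all macrophages, the study reported more CD11c in MHC class II high than low cells of both sexes. Among low cells it reported more CD11c in females than in males. The values here are transcripts, and of other macrophages only. Among 1000 UMIs drawn from each other macrophage, those of Cd74, H2-Aa, H2-Eb1 and H2-Ab1 were counted, and cells with 10 or fewer were called low. These were 160 female cells (25.4%, median 1 UMI per 1000) and 19 male cells (3.62%, median 2), against 470 and 506 high cells (median 44 and 55). The boundary cuts a range, with 34 and 6 cells at 8 to 13 UMIs per 1000.

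Itgax was 9.06-fold (5.33 to 16.7) and 4.55-fold (1.77 to 16.8) higher in MHC class II high than in low cells, the latter holding only 14 and 4 UMIs. It was the only 1 of 6 members counted that passed 2-fold in both libraries, against 0.900% of 5109 genes. With the boundary at 20 UMIs per 1000 the difference was 4.82-fold and 1.66-fold, the male value under 2-fold. Itgam ran the other way in the female library, where it was 1.92-fold (1.45 to 2.55) higher in low cells, and in the male library, with 3 UMIs in low cells, it was 0.958-fold (0.194 to 2.89). Itga4 was 1.2-fold and 2.42-fold and Itga6 1.57-fold and 1.01-fold higher in low cells. The median depth was 4138.5 and 2148 UMIs per cell in low and 3980.5 and 3565.5 in high cells.

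Along the range in the female library, the level of Itgax was 18.1, 26.0, 90.1, 172, 185 and 211 CPM in cells with 0 to 5, 6 to 10, 11 to 20, 21 to 40, 41 to 60 and 61 or more MHC class II UMIs per 1000. Most of the step lay between 10 and 40 UMIs per 1000. Itgam in the same cells was at 118, 113, 75.7, 66.1, 58.2 and 50 CPM. In the male library the 4 upper bins, which held at least 20 cells each, had 254, 214, 239 and 267 CPM of Itgax and 74.8, 53.5, 47.5 and 33.8 CPM of Itgam. Itgax showed no step there, and the bins below held only 19 male cells.

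**Figure D4:**
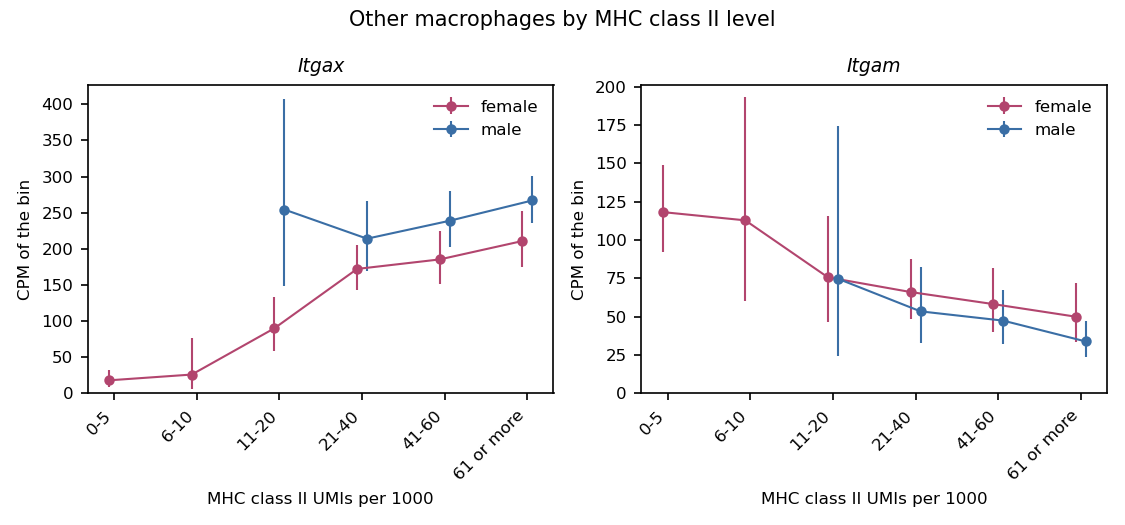
Level in CPM (y axis) of Itgax and Itgam in other macrophages binned by UMIs of 4 MHC class II pathway genes per 1000 (x axis), in bins of at least 20 cells, with exact Poisson 95% intervals. In the female library Itgax rises from 18.1 to 211 CPM while Itgam falls from 118 to 50 CPM across the bins.

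Female and male libraries were then compared within each class. A gene was counted as different when its level differed 1.5-fold or more, among genes with 50 or more UMIs over both libraries. Over the 15 classes this could be asked of 74 pairs of member and class. Of these 18 passed, 8 higher and 10 lower in the female library, against 10.7% of 48283 pairs of gene and class. The interval of the ratio excluded 1 in 29 pairs, and 14 of the 18 pairs both passed and had such an interval. When the median log2 ratio of all genes counted in a class was subtracted, 16 pairs passed, 15 of them among the 18. Sex, animals and library cannot be told apart in this design.

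In other macrophages 3 of 7 members passed, against 8.77% of genes. Itgax was at 135 CPM in the female and 242 CPM in the male library, 1.79-fold (1.57 to 2.04) higher in the male. Itgam was 1.77-fold (1.38 to 2.28) higher in the female library, and with a mitochondrial ceiling of 1.2% these ratios were 1.47-fold and 3.42-fold. Itgb7 was 3.37-fold (1.94 to 6.22) higher in the female library, on 70 and 16 UMIs. Itga6 (1.44-fold) and Itgal (1.30-fold) were higher in the female library without passing. Markers of several other cell types were also higher in the female library within this class. The 8 T cell markers summed to 65.4 and 19.1 CPM, the 8 markers shared by NK cells and ILC1 to 88.8 and 31.8 CPM, and the 8 classical monocyte markers to 641 and 307 CPM, with none of these markers at 0 in either library. The 7 neutrophil markers summed to 232 and 109 CPM, with 1 of them at 0 in the female library. Markers of 2 other types were higher in the male library, the 7 of type 1 dendritic cells at 728 and 908 CPM and the 8 of endothelial cells at 53.5 and 66.2 CPM, and the 10 ILC1 markers summed to 1408 and 1369 CPM. The part of any of these in the differences was not tested.

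The share of MHC class II low cells, which had little Itgax, differed between the libraries. Within MHC class II high cells alone, Itgax was 1.42-fold (1.24 to 1.63) higher in the male library. In the bins of 11 to 20, 21 to 40, 41 to 60 and 61 or more MHC class II UMIs, the male level was 2.82-fold (1.43 to 5.44), 1.24-fold (0.927 to 1.66), 1.29-fold (1.0 to 1.67) and 1.27-fold (1.02 to 1.58) the female one. In the bin of 0 to 5 it was 4.36-fold (1.01 to 14.7), on 11 UMIs in 135 female cells and 4 UMIs in 14 male cells, and the bin of 6 to 10 had 3 and 0 Itgax UMIs. The difference was thus smaller than over the class in the 3 highest bins and larger in the bins of 0 to 5 and 11 to 20, which held 14 and 22 male cells.

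Itgam and Itgb7 were taken over the same bins. In the bins from 11 to 20 upward, Itgam in the female library was 1.01-fold (0.371 to 3.43), 1.24-fold (0.720 to 2.2), 1.23-fold (0.729 to 2.07) and 1.48-fold (0.866 to 2.50) the male level. Each of these is under 1.5-fold, with an interval that includes both 1 and the ratio over the class. Single bins thus held too few UMIs to tell whether the difference over the class was kept or lost within them. In the bin of 0 to 5 there were 72 female and 1 male Itgam UMIs, 6.00-fold (1.04 to 240.3), and in the bin of 6 to 10 there were 13 and 2. Itgb7 had 19 and 1 UMIs in the lowest bin, then 7 and 0, 9 and 0, 20 and 0, and 13 and 6. In the highest bin it turned, with 2 female and 9 male UMIs, 2.44-fold (0.504 to 23.2) higher in the male library with an interval that includes 1.

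Of the 3 clusters that make up other macrophages, the one led by AA467197, C1qa and Tmem119 had Itgax 2.62-fold (2.14 to 3.22) higher in the male library and Itgam 2.68-fold (1.89 to 3.87) higher in the female. In the cluster led by Aif1 and Cxcl14, Itgax was 1.44-fold (1.07 to 1.92) higher in the male library. In the cluster led by Ms4a7 and Slc40a1 it was 1.2-fold (0.951 to 1.52) higher there. The Itgam ratio is given for the AA467197 cluster only and does not stand for the others. Itgb7 was at 36.8 and 9.99 CPM in the AA467197 cluster and 15.9 and 3.67 CPM in the Aif1 cluster. In the Ms4a7 cluster it was at 7.15 and 5.38 CPM, on 5 and 3 UMIs.

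Itgax was higher in the male library in lymphoid and dendritic classes too. In conventional NK cells it was 1.64-fold (1.24 to 2.17) higher, the only 1 of 7 members to pass there, against 8.70% of genes. The 10 ILC1 markers summed to 1323 and 1737 CPM in that class, and the 10 conventional NK markers to 17107 and 13924 CPM. Their part in the difference was not tested. In ILC1 Itgax was 1.39-fold (1.16 to 1.65) higher and did not pass. In type 2 dendritic cells 3 of 6 members passed, against 15% of genes, all higher in the male library. These were Itgax by 1.51-fold (0.994 to 2.29; 1.49-fold relative to the median gene, which does not pass), Itgam by 1.52-fold (1.11 to 2.08) and Itgal by 1.71-fold (1.04 to 2.84). Per-cell gates left 1 and 1 UMIs of Itgam in this class. Aldh1a2-high macrophages went the other way for Itgax, 1.34-fold (0.84 to 2.12) higher in the female library with an interval that includes 1, and 0 of 4 members passed there, against 10.4% of genes.

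In ILC1 2 of 9 members passed, against 9.95% of genes. Itga4 was 1.51-fold (1.26 to 1.81) and Itgam 1.76-fold (1.01 to 3.03) higher in the male library, and with per-cell gates the ratio of Itga4 was 1.22-fold. Of the 707 genes called in this class 534 were higher in the male library, and the median log2 ratio, female over male, was -0.12 over all genes counted. Relative to that median, Itga4 was 1.39-fold and no longer passed, Itgam was 1.62-fold, and Itga2 passed at 1.54-fold higher in the female library. The 10 conventional NK markers summed to 5263 and 3480 CPM in ILC1, and the 10 ILC1 markers to 4236 and 5003 CPM. Their part in these differences was not tested. Itga1, the chain that marks the class, was 1.16-fold (1.02 to 1.32) higher in the male library and did not pass. In other T cells Itga1 was 1.61-fold (1.26 to 2.05) higher in the male library, 1 of 7 members against 8.86% of genes, and 6.03-fold on 4 and 15 UMIs with per-cell gates. In CD8 T cells Itgae passed, 1 of 6 members against 11.1% of genes, at 1.63-fold (0.870 to 3.28) higher in the female library with an interval that includes 1.

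In Lyve1-high macrophages 2 of 4 members passed, against 15.3% of genes. Itga4 was 2.71-fold (1.61 to 4.63) higher in the female library. Itga6 was 2.11-fold (1.27 to 3.55) higher there, on UMIs held by a few cells, and was 0.810-fold when doublets were removed at 2 times the rate and 6.80-fold on 28 and 5 UMIs with per-cell gates. In this class the 8 T cell markers summed to 228 and 43.7 CPM and the 8 shared NK and ILC1 markers to 169.8 and 69.4 CPM, and the 8 endothelial markers to 178 and 87.4 CPM, higher in the female library as well. Other lists were higher in the male library, such as the 7 markers each of type 1 dendritic cells (356 and 529 CPM), type 2 dendritic cells (547 and 874) and neutrophils (306 and 506), the 10 of conventional NK cells (828 and 954) and the 8 of B cells (489 and 617). The part of any of these in the differences was not tested. In nonclassical monocytes Itgam was 1.73-fold (1.15 to 2.62) higher in the male library, 1 of 5 members against 12.6% of genes. With per-cell gates it was 5.83-fold on 3 and 19 UMIs. There the 10 conventional NK markers summed to 628 and 1152 CPM and the 8 classical monocyte markers to 3911 and 3013 CPM. Their part in the difference was not tested. In classical monocytes 0 of 5 members passed, against 12.8% of genes.

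The remaining classes had few members with 50 UMIs. In endothelial cells 2 of 4 members passed, against 13.7% of genes. Itga1 was 1.70-fold (1.04 to 2.80) and Itga6 1.72-fold (1.11 to 2.69) higher in the female library, the former 4.11-fold with a mitochondrial ceiling of 5%. In ILC2 1 of 2 passed, against 13.2%, with Itga4 1.53-fold (0.884 to 2.74) higher in the female library and 1.49-fold relative to the median gene, which does not pass. In type 1 dendritic cells 1 of 2 passed, against 14.4%, with Itgal 1.51-fold (0.843 to 2.75) higher in the male library. B cells had 0 of 4 (11% of genes) and neutrophils 0 of 2 (18.0% of genes). No member passed in the same direction in more than 3 classes. Itgax and Itgam were each higher in the male library in 3 classes, and Itgam was higher in the female library in other macrophages.

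**Figure D5:**
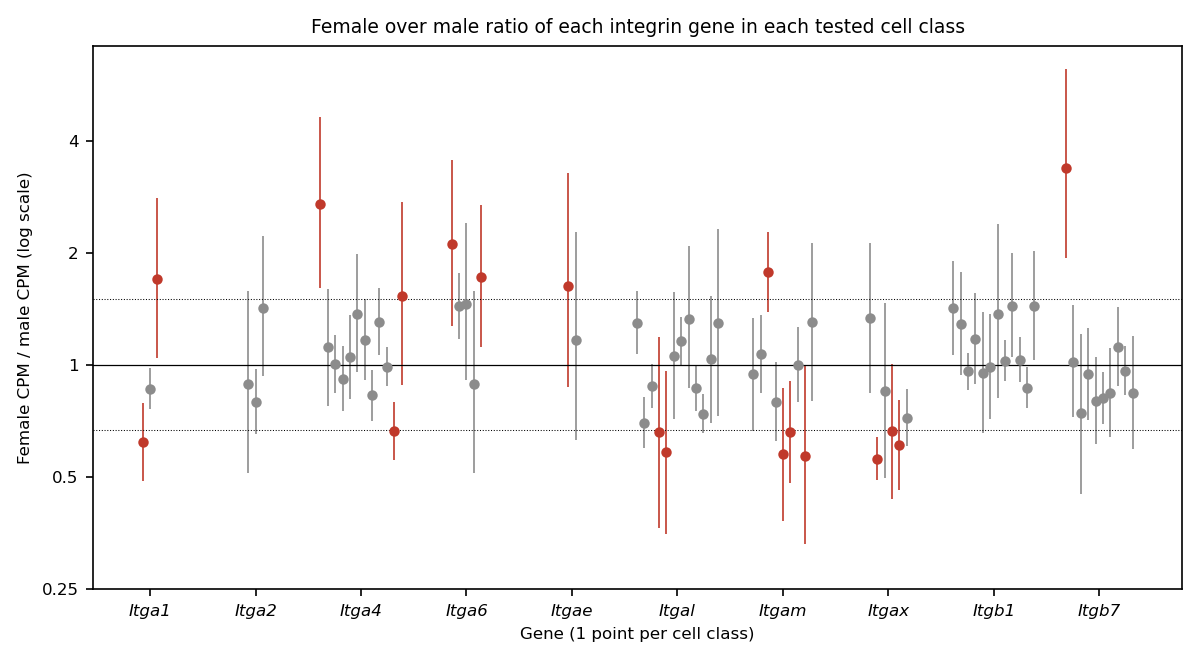
Ratio of the female to the male level (log scale, y axis) for each integrin gene (x axis), 1 point per class with 50 or more UMIs over both libraries. Red points differ 1.5-fold or more and dotted lines mark that fold. Of 74 points 18 are red, and the points of Itgax lie mostly on the lower, male side.

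Other integrin and linkage genes were read from lists chosen by name, with earlier results of these data known. Of 17 further integrin genes, 3 reached 100 CPM in a class of both libraries, Itgb2, Itgav (highest in nonclassical monocytes, 229 and 286 CPM) and Itgb5 (highest in other macrophages, 369.8 and 331 CPM). Of 19 genes that switch integrins on or tie them to the cytoskeleton, 15 reached it. Rap1a (692 and 823 CPM), Rap1b (1410.0 and 1453 CPM) and Apbb1ip (431 and 501 CPM) were highest in nonclassical monocytes in both libraries. So were Rasgrp2 (255 and 322 CPM) and Ptk2b (346 and 451 CPM), but none of the other genes of the list. How many of all genes peak in that class was not counted. Fermt3 was highest there in the female library (303 CPM) but in other macrophages in the male (254 CPM, against 215 CPM). Tln1, encoding talin, was highest in conventional NK cells in the female library (537 CPM) and in nonclassical monocytes in the male (580 CPM, against 502 CPM in conventional NK cells). Of 13 ligand genes, 6 reached it, among them Vcam1 in other macrophages (379 and 415 CPM), Fn1 in Aldh1a2-high macrophages (4782 and 6043 CPM) and Icam2 in endothelial cells (227 and 174 CPM). Between MHC class II low and high macrophages, none of the genes of these lists that could be counted passed 2-fold in both libraries.

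Genes with the most similar pattern were found by Pearson's r of log2(CPM + 10) over 26 sums of class and library with 50 or more cells, among 5534 genes. The 26 sums share libraries, depth and 1 sort, and the values describe these sums only. For Itga1 they were Serpina3f (r = 0.81), Trip4 (r = 0.79) and Cd160 (r = 0.79). For Itga2 they were Prf1 (r = 0.95), Klra4 (r = 0.93) and Klra3 (r = 0.93), genes of NK cell killing and receptors. Itgal came closest to Adgre5 (r = 0.87), Cul3 (r = 0.87) and Ptk2b (r = 0.85), and Itgae to Dapl1 (r = 0.84), Lef1 (r = 0.80) and Sidt1 (r = 0.80). Itgax came closest to Sh2d1b1 (r = 0.86), Efhd2 (r = 0.81) and Fcer1g (r = 0.79), Itgam to Ehbp1l1 (r = 0.89), Arpc5 (r = 0.89) and Cdc42 (r = 0.89) and Itgb7 to Tmsb10 (r = 0.93), Hmgn5 (r = 0.89) and Il2rg (r = 0.86). The genes nearest to Itga4 were Rab8a (r = 0.82), Arfgef1 (r = 0.81) and Ikzf1 (r = 0.79), to Itga6 Tgfbr2 (r = 0.75), Slc12a7 (r = 0.75) and Igfbp4 (r = 0.73) and to Itgb1 Tram1 (r = 0.87), Metap2 (r = 0.86) and Brap (r = 0.86). Among the members themselves, Itga4 and Itgal were most alike (r = 0.76), Itgam and Itgax had r = 0.56, and Itgae and Itgam were the least alike (r = -0.48).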

How the data were processed

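Per the labels, Cell Ranger 4.0.0 was run by the authors for demultiplexing, alignment and counting, the build in the submitters' processing notes is mm10, and barcodes of noise were removed from the barcode rank curve. The deposited values are raw UMI counts per gene and barcode, for 3963 female and 2685 male barcodes with 16218309 and 9512670 UMIs.

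Barcodes with at least 200 genes and at most 15% mitochondrial UMIs were kept. The ceiling of 1.2% given in the study keeps only 327 (8.25%) and 359 (13.4%) barcodes, far fewer than it analysed, and was tried as an alternative. Scrublet in Scanpy 1.11.5 (Python 3.11.15) scored doublets, and its own threshold marked only 1 and 8 barcodes. The highest-scoring 3.17% and 2.15% (0.8% per 1000 barcodes) were therefore removed, 123 and 53 barcodes that had passed the filters. Clusters were made in R 4.3.3 (Seurat 5.3.0, with sctransform 0.4.2), in the way the study describes. They used 2000 features, 20 principal components and resolution 1. From the features, 11 integrin genes and 11 other genes were held out. The rule for the latter covered the MHC class II pathway and the sex-linked genes Xist, Tsix, Ddx3y, Eif2s3y, Kdm5d and Uty. A cluster was named from its highest-scoring marker list, by a scoring rule set after the clusters were seen. NK-type clusters were then divided by the conventional NK and ILC1 lists, and the cycling cluster and a cluster of low depth with no macrophage marker among its 10 leading genes stayed unnamed.

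Counts were summed per class and library, and intervals were computed with SciPy 1.17.1. The floor behind a count of 0 is 3 counts. Shares were also taken after drawing 1000 UMIs per cell (seed 1), leaving out shallower cells. Clustering used the genes of these cells, so that differences between classes are descriptions. All 10 members are named, and other genes by lists and levels (100 CPM in a class of both libraries, 2-fold calls, or the 3 highest correlations). The members and lists were chosen with earlier results of these data known. Alternatives were other mitochondrial ceilings, doublet rates, cluster resolutions, boundaries and draws, integrin genes not held out, subtracting the median gene, and per-cell marker gates (3 marker UMIs). Simulated counts were used to test the 2-fold calls between classes and the interval of a ratio. The calls were tested for ILC1 against conventional NK cells and for Lyve1-high against other macrophages. Calls between libraries, naming, gates and draws were not tested in this way. The planned protein comparison was not done. Sequences are from RefSeq on GRCm38.p6.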

Additional observations from a re-analysis of the deposited data

How the results depend on the processing

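Each of 591 values recomputed under an alternative was compared with its reported value, and 467 kept their direction and size, 121 moved and 3 reversed. The 21 main ratios were kept under resolution 1.5, doublets at 2 times the rate, integrin genes not held out and subtraction of the median gene.

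With per-cell marker gates, Itga1 in ILC1 over conventional NK cells was 1.35 (female) and 1.91 (male), Itga2 the other way 3.15 and 4.92, and Itga4 2.56 and 2.79. Itgam in Lyve1-high over other macrophages was 2.07 (female), and Itgal in nonclassical over classical monocytes 3.83 and 3.5. Without Gzma in the gates, Itga1 was 2.73 and 3.99, Itga2 4.22 (male), Itga4 4.16 and 2.79, Itgam 2.07 (female) and Itgal 3.83 and 3.5.

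A mitochondrial ceiling of 5% gave 7.56 (male) for Itgam in Lyve1-high over other macrophages. The ceiling of 1.2% left few cells. There Itga4 in conventional NK cells over ILC1 was 7.06 and 1.13, and Itgam in Aldh1a2-high over other macrophages 2.29 (female). Itgam in other macrophages, female over male, was 3.42 and Itgax, male over female, 1.47. Reversed values there were Itgam in Lyve1-high over other macrophages, 0 in the female library (0 against 16 UMIs), and Itgax in other over Lyve1-high macrophages, 0.552 in the female library (10 against 2 UMIs).

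With the MHC class II boundary at 20 per 1000, Itgax in high over low cells was 4.82 and 1.66. Itga6 in Lyve1-high macrophages, female over male, was 0.810 with doublets at 2 times the rate (13 against 26 UMIs). The cause of these changes was not tested. The class with the highest level of a member was kept in 111 of 118 checks, the exceptions being Itga1 in males (endothelial, per-cell gates), Itgae in females (type 1 dendritic, 5% ceiling), Itgax in males (type 2 dendritic, 4 cells, both kinds of gate) and Itgb1 in males (nonclassical monocytes, 5% ceiling and both kinds of gate). The gates left ILC2 with 0 female cells and 1 male cell, so that Itgb7 could not be checked in the female library and its 2 male checks say nothing. No paired analysis was possible because each sex had 1 library. Counts of under 50 UMIs, as for Itgae in each class and Itga2 outside conventional NK cells and female ILC1, limit what these libraries can show.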
